A study of Bos taurus with 2 samples.

Results

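Translation initiation and elongation factors were followed in bovine testis by gene name. Every non-control probe whose gene name begins with EIF or EEF, or is PABPC followed by a digit, was taken, which gave 187 probes of 69 gene names among the 51282 probes and 32429 gene names of the array. The probes occupied 198 of 61657 spots. The study set the testis of crossbred bulls beside that of Zebu bulls and asked which transcripts differ between them. The crossbred group was made of Holstein Friesian crosses with Zebu cattle and the Zebu group of Tharparkar bulls, all 24 months old, and neither group had a treatment or an engineered allele. Total RNA of 3 bulls was pooled in each group and each pool was hybridised with Cy3 to 1 array, so that no spread between animals is left in the data, breed and array cannot be told apart, and no test between the groups can be made.

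Protein synthesis starts when a cap-binding complex brings the small ribosomal subunit to the mRNA, the initiator tRNA finds the start codon and the large subunit joins. The initiation factors (EIF genes) carry out these steps, the elongation factors (EEF genes) bring in each aminoacyl-tRNA and move the ribosome along, and the cytoplasmic poly(A)-binding proteins (PABPC genes) hold the mRNA tail and touch the cap complex. In the testis this machinery works on stored mRNAs, because spermatids shut down transcription and translate many messages later, and some factors have a second gene copy used in germ cells.

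A level here is the log2 of the processed signal minus the 75th percentile of all probes on that array, and a difference is the crossbred level minus the zebu level of the same probe. A gene was read from its brightest probe and taken as detected if the scanner software marked this probe as well above background in either pool. The call higher or lower was given from a log2 difference of 1.5 upwards in size, which is 2.83-fold. Repeated spots of 1 probe gave an SD of 0.34 for such a difference, over 5960 probes, and this SD covers spotting and scanning only. Well above background were 72.0% of the crossbred spots and 74.3% of the zebu spots, and none was saturated. The crossbred array had a dark patch of 544 spots with a median spot difference of -1.01 and a bright patch of 105 spots with 1.10, and 1 translation factor spot, that of EIF2C3, lay in the dark patch and 0 in the bright one.

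Both pools gave a signal well above background for 68 of the 69 genes, and the remaining EIF2S3Y, a Y-linked copy of an eIF2 subunit gene, was well above background on neither. EIF5A2 and EIF2C1 rose in the crossbred pool, which is 2 of 68 genes where 7.12% of all 24751 detected genes were called higher. EIF2C3 fell, which is 1 of 68 where 2.92% of all genes were called lower, and its only spot was the one in the dark patch. The median difference was 0.05 over the 68 translation factors (-0.02 under quantile normalization) and -0.04 over all 22842 genes well above background on both arrays. A difference smaller than 0.5 in size was seen in 43 of the 68 (63.2%), against 52.2% of all genes. At a log2 limit of 1, EIF2A and EIF2AK2 joined the higher side, which is then 4 of 68 where 12.8% of all genes passed, and the lower side stayed at 1 where 8.87% did. At a linear fold of 1.5 in place of the log2 limit, 9 of 68 passed on the higher side, where 21.4% of all genes did, and 11 on the lower side, where 22.2% did.

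**Figure D1:**
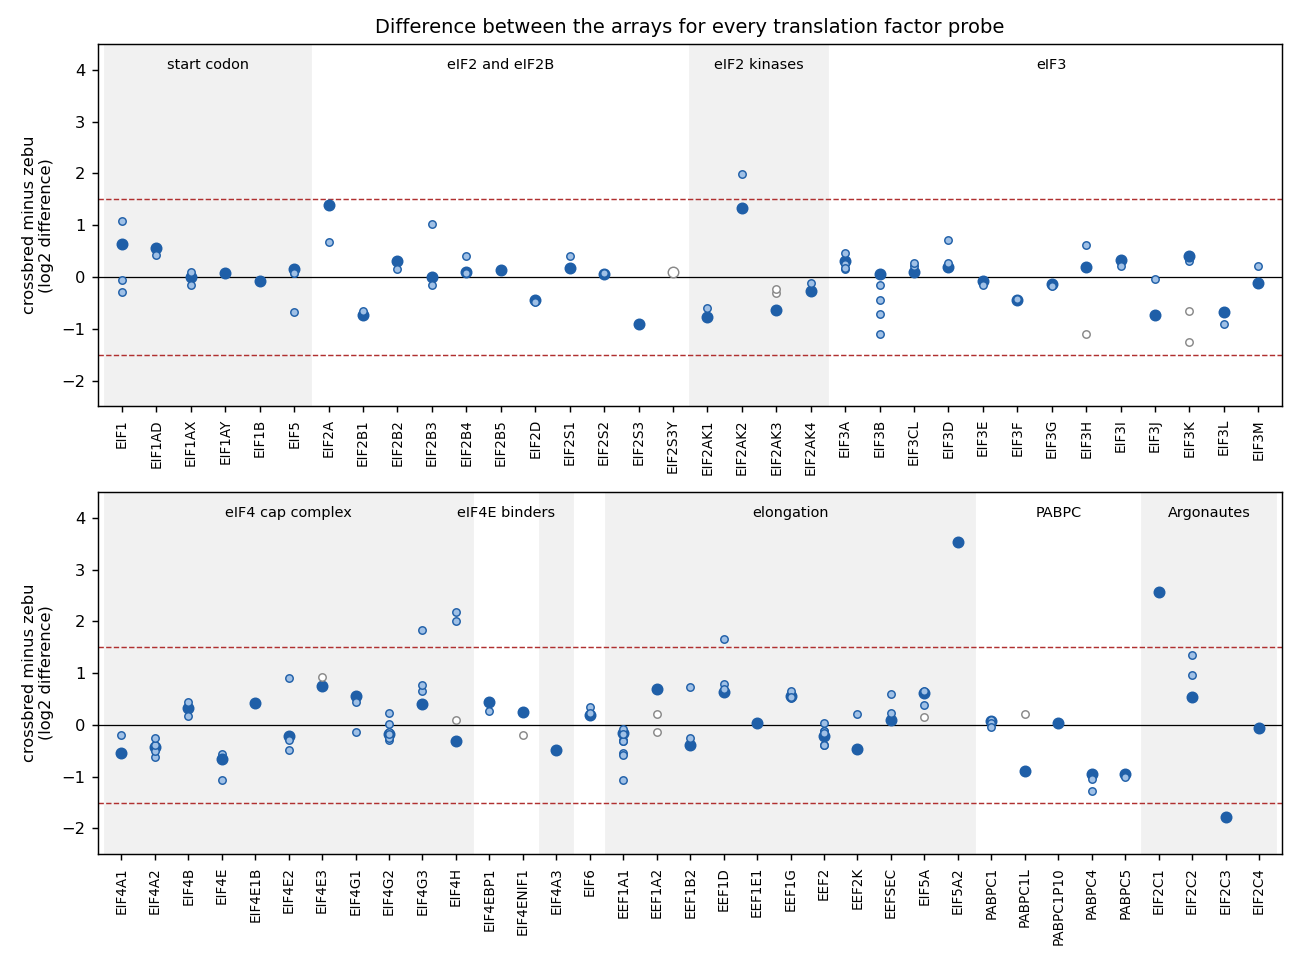
Each point is 1 probe, placed by its log2 difference (crossbred minus zebu) above its gene name, with genes grouped by role; large dark points are the probes read for a gene, small pale points its other probes and open points probes not well above background on both arrays, and dashed lines mark 1.5 and -1.5. Most genes sit near 0, EIF5A2 stands at 3.54 and EIF2C1 at 2.56, and the extra probes of EIF4H, EIF4G3, EEF1D and EIF2AK2 cross the upper line.

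The factor with the widest gap was EIF5A2, the second gene for eIF5A, a protein that helps the ribosome form difficult peptide bonds and carries the modified lysine hypusine. Its single probe, at chr1:98811684-98811743 of the array's cattle build (HGSC Btau 3.1), had a level of 0.37 in the crossbred pool and -3.18 in the zebu pool, a difference of 3.54 or 11.6-fold. The probe was printed in 2 spots at separate places, with levels of 0.38 and 0.35 on the crossbred array and -3.15 and -3.20 on the zebu array. The spots thus gave differences of 3.53 and 3.55, while the median difference of the 18 spots nearest to each was 0.08 and -0.22. The widely used copy EIF5A had a level of 6.07 in the crossbred and 5.46 in the zebu pool, a difference of 0.61, and its other probes well above background gave 0.66 and 0.38. EIF5A did not reach the 1.5 limit, so that the copies of this pair lay on different sides of it. DHPS and DOHH, the enzymes that make hypusine, had differences of 0.14 and -0.30.

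Among the eEF1 subunits, the B-type subunits lay on opposite sides of 0. eEF1A delivers aminoacyl-tRNA to the ribosome, and eEF1B2, eEF1D and eEF1G reload it with GTP or anchor the complex. EEF1D had a level of 6.54 in the crossbred and 5.90 in the zebu pool, a difference of 0.64. Its other probes gave 0.69, 0.79 and 1.67, so that 1 of 4 passed the limit and all 4 lay beyond the spot SD on the higher side. EEF1G had levels of 5.72 and 5.16 in the crossbred and zebu pools, and its 4 probes gave differences of 0.51, 0.53, 0.57 and 0.66. Some probes of EEF1D overlap each other, as do some of EEF1G, so they are not all separate readings. EEF1B2 had levels of 4.73 and 5.12, a difference of -0.39, with -0.26 and 0.73 from its other probes, and the last of these had levels of -4.06 and -4.79. EEF1E1, which despite its name belongs to the aminoacyl-tRNA synthetase complex, differed by 0.03. The EEF1D probe past the limit is shown because it read the gene differently from the other 3, and it lay at chr14:934089-934148.
EEF1D: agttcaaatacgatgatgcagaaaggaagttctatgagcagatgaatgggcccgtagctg

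EEF1A1 was covered by 9 probes, the most of any translation factor. The probe read for it had a level of 6.70 in the crossbred and 6.86 in the zebu pool, a difference of -0.17. The 8 probes on chromosome 9 gave differences between -0.59 and -0.08, and the probe placed on chromosome 18 gave -1.06, so that all 9 were below 0 and none reached the limit. Some of the probes on chromosome 9 overlap, so the 9 are not all separate readings. EEF1A2, the copy known from muscle and neurons, had levels of -4.24 and -4.93, a difference of 0.69, and its other probes were well above background on neither array. The copies are close in sequence, and a pair of their probes, at chr9:12614826-12614885 and chr13:54841340-54841399, is printed here with the bases that differ in capitals. Over an overlap of 55 bases they shared 39 and differed at 16, and their differences between the arrays, -0.18 and 0.69, had opposite signs.
EEF1A1: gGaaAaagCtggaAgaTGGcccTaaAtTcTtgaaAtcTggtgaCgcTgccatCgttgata
EEF1A2: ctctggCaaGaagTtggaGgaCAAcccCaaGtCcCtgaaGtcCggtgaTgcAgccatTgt

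The elongation factor that moves the ribosome by 1 codon, EEF2, had levels of 5.76 in the crossbred and 5.96 in the zebu pool. Its 7 probes gave differences from -0.40 to 0.04, among them a probe placed on chromosome X with -0.12, whereas the others lay on chromosome 7. EEF2K, the kinase that switches eEF2 off, had levels of -0.02 and 0.44, a difference of -0.46, and its second probe gave 0.21. EEFSEC, which brings selenocysteine to the ribosome, differed by 0.09. Of the 11 elongation genes, EIF5A2 was the only one called, and their median difference was 0.09.

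The factors grouped by name as those that find the start codon gave no call, and their median difference over 6 genes was 0.11. The 6 include EIF1AD, only a relative of eIF1A by name, whose probes gave 0.56 and 0.42. EIF1, which guards the fidelity of the start codon, had a level of 6.53 in the crossbred and 5.89 in the zebu pool, a difference of 0.64. Its other probes gave 1.07, -0.07 and -0.29, so the probes did not share a sign. EIF5, which triggers GTP hydrolysis by eIF2, differed by 0.15, with 0.08, 0.08 and -0.68 from its other probes. Around the probe with -0.68, the 18 nearest spots had a median difference of 0.82. EIF1AX, the X-linked gene of eIF1A, had a level of 6.34 on both arrays and a difference of -0.01. EIF1AY, its Y-linked copy, had levels of 0.65 and 0.57, a difference of 0.08. A pair of probes for these copies is printed with the bases that differ in capitals, the EIF1AX probe lying at chrX:75388212-75388271. They shared 47 of 59 overlapping bases, and their differences were 0.09 and 0.08.
EIF1AX: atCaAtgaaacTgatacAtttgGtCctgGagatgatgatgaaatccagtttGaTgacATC
EIF1AY: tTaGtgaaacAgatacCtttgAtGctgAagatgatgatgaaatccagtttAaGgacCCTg

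eIF2 carries the initiator tRNA and eIF2B recharges it with GTP. The alpha and beta subunits, EIF2S1 and EIF2S2, had differences of 0.18 and 0.05, both within the spot SD. Their second probes gave 0.40, beyond the spot SD, for EIF2S1 and 0.07 for EIF2S2. The gamma subunit EIF2S3 had a level of 1.55 in the crossbred and 2.45 in the zebu pool, a difference of -0.90 read from a single probe. The 3 subunits of 1 complex were therefore not alike in these arrays, although none passed the limit. Among the eIF2B subunits, EIF2B2, EIF2B3, EIF2B4 and EIF2B5 gave 0.30, 0.01, 0.10 and 0.14. EIF2B1 had levels of -0.79 and -0.05 in the crossbred and zebu pools, with differences of -0.74 and -0.66 from its 2 probes. A second EIF2B3 probe gave 1.03, and the median difference of the 18 spots around it was 1.29. EIF2A, an alternative carrier of the initiator tRNA that is no part of eIF2, had a level of 1.32 in the crossbred and -0.07 in the zebu pool. This is a difference of 1.38 or 2.61-fold, close under the limit, and its second probe gave 0.67. EIF2D, another alternative carrier, gave -0.45 and -0.48.

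The 4 kinases that phosphorylate eIF2 and slow initiation under stress did not lie on 1 side of 0. EIF2AK2, the double-stranded RNA sensor PKR induced by interferon, had a level of -0.59 in the crossbred and -1.92 in the zebu pool, a difference of 1.34 or 2.53-fold. Its second probe, printed in 2 spots, had levels of -2.20 and -4.19, a difference of 1.99 past the limit, and the spots gave 1.86 and 2.12. Both EIF2AK2 probes thus stood higher in the crossbred pool by more than the spot SD. EIF2AK1, the haem-regulated kinase, had levels of 0.88 and 1.66, a difference of -0.78, and -0.60 from its second probe. EIF2AK3 (PERK, the endoplasmic reticulum stress kinase) gave -0.63 with spots of -0.69 and -0.58, and EIF2AK4 (GCN2, the amino acid starvation kinase) gave -0.26 and -0.12. The EIF2AK2 probe read for the gene lay at chr11:20226381-20226440 and the second beside it at chr11:20226300-20226359. The first is printed because the call for PKR depends on which of these neighbouring probes is read.
EIF2AK2: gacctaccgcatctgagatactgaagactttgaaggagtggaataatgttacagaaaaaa

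eIF3 is the large scaffold on the small subunit, and 13 of its subunit genes were measured. None was called, their median difference was 0.05 and 11 of 13 lay within 0.5 of 0. EIF3A, the largest subunit, had levels of 2.88 and 2.58 in the crossbred and zebu pools and differences of 0.16 to 0.46 over 5 probes. Among probes well above background in both pools, those of EIF3B had the widest range of any subunit, since the brightest gave 0.05 and the other 4 between -1.11 and -0.15. By the probe read for each gene, the 2 subunits beyond 0.5 were EIF3J and EIF3L. EIF3J, which sits loosely on the complex, had a difference of -0.73 and a second probe at -0.03, and EIF3L had -0.68 and -0.91. Counting probes well above background in both pools, EIF3D gave 0.20 with others at 0.28 and 0.71, and EIF3H 0.19 with another at 0.62.

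The cap-binding complex was divided by subunit. EIF4E, which holds the cap, had a level of 1.94 in the crossbred and 2.61 in the zebu pool, a difference of -0.66, and its other probes gave -0.56 and -1.06. All 3 probes of EIF4E lay beyond the spot SD on the lower side. They overlap, starting at 27514835, 27514839 and 27514856 of chromosome 6, so they are not separate readings of the gene. Its relative EIF4E2, a cap-binding repressor, gave -0.22 with other probes between -0.48 and 0.91, and EIF4E3, another relative, gave 0.75 from a dim probe with levels of -4.56 and -5.31. EIF4A1 and EIF4A2, the helicases that unwind the leader, gave -0.55 and -0.43, and the 5 probes of EIF4A2, some of which overlap, ranged from -0.62 to -0.25. EIF4B, which stimulates the helicase, differed by 0.32.

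The 3 scaffold genes of the cap complex were not alike in sign, and none was called. EIF4G1, the main scaffold, had levels of 1.58 and 1.02 in the crossbred and zebu pools, a difference of 0.56, with 0.44 and -0.15 from its other probes. EIF4G3, the scaffold copy required for male meiosis in mice, had levels of 3.23 and 2.83, a difference of 0.40. Its other probes gave 0.65, 0.77 and 1.84, so that all 4 were above the spot SD and 1 passed the limit. EIF4G2, a scaffold that works without the cap-binding protein, gave -0.18, and its 7 probes ranged from -0.29 to 0.23. The brightest EIF4G3 probe is printed from chr2:136315885-136315944, while the probe past the limit lay upstream at chr2:136190043-136190102.
EIF4G3: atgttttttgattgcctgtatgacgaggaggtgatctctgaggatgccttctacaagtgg

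EIF4H, a small partner of the helicase, was the 1 translation factor whose probes differed from each other by more than 1.5, counting probes well above background in both pools. The probe read for it, placed at chr5:4346047-4346106 and designed to an Ensembl transcript, had a level of 2.09 in the crossbred and 2.40 in the zebu pool, a difference of -0.31. A probe designed to the RefSeq transcript had levels of 3.22 and 1.03, a difference of 2.19, and a second RefSeq probe had 0.68 and -1.32, a difference of 1.999. Both RefSeq probes stood well above background in either pool, and the 18 spots around them had median differences of 0.18 and 0.10. The fourth probe was well above background on neither array. The direction of EIF4H therefore turns with the probe read, and with the probe of the highest mean linear signal it would be called higher. The array annotation gave no position for the RefSeq probes, of which the second is printed.
EIF4H: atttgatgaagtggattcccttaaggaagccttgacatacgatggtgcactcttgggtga

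The repressors of eIF4E differed little. EIF4EBP1, which blocks the cap-binding protein until mTOR phosphorylates it, had levels of 0.75 and 0.31, with differences of 0.43 and 0.26 from its 2 probes, and EIF4ENIF1, which carries eIF4E into the nucleus, gave 0.25. EIF6, which keeps the ribosomal subunits apart, differed by 0.18, 0.23 and 0.34 in its 3 probes. EIF4A3, a helicase relative that marks exon junctions, differed by -0.49. Of the 45 names in the core list of factors, 40 were found on the array, and EIF3C, EIF4EBP2, EIF4EBP3, EIF5B and PABPC3 were not found under these names.

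The poly(A)-binding genes split into an even and a lower set. PABPC1, the general tail-binding protein, had levels of 5.69 and 5.61, and its 4 probes gave differences from -0.04 to 0.10. PABPC4 had a level of 4.14 in the crossbred and 5.08 in the zebu pool, a difference of -0.95, with -1.05 and -1.28 from its other probes. PABPC5, an X-linked copy, had levels of -1.84 and -0.89, a difference of -0.95, with -0.998 from its second probe. PABPC1L, the copy known from oocytes and early embryos, had levels of 0.31 and 1.20, a difference of -0.89, and its 2 spots gave -0.91 and -0.87. None of these passed the limit of 1.5, but every probe of PABPC4, PABPC5 and PABPC1L that was well above background lay between -1.28 and -0.89, outside the range of the PABPC1 probes. PABPC1P10, a name of the pseudogene type, differed by 0.03. Its only probe was placed next to the probe read for PABPC1, on the opposite strand of the same unplaced sequence. A PABPC4 probe at chr3:113574187-113574246 and a PABPC1L probe at chr13:74098830-74098889 cover the same stretch and are printed with the bases that differ in capitals, 39 of 51 overlapping bases being shared. The PABPC4 probe differed by -1.28, whereas the PABPC1L probe was well above background on neither array.
PABPC4: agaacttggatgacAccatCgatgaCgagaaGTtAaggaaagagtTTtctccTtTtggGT
PABPC1L: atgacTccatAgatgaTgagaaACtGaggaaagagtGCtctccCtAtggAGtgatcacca

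The EIF2C names are older symbols of the Argonautes, which bind small RNAs and repress mRNAs and are no initiation factors. EIF2C1 (now AGO1) had a level of -1.42 in the crossbred and -3.98 in the zebu pool, a difference of 2.56 or 5.90-fold, from 1 probe of 1 spot at chr3:117101128-117101187. The median difference of the 18 spots around it was -0.39. EIF2C3 (now AGO3), its neighbour on chromosome 3, had levels of -4.73 and -2.95, a difference of -1.78 or 3.44-fold lower in the crossbred pool. Its spot lay in the dark patch, where the 18 nearest spots had a median difference of -1.81 and 4 of the 6 nearest spots were below -1.5, and without the patches EIF2C3 had no value left. EIF2C2 (now AGO2), the Argonaute that can cut its target, gave 0.55, 0.97 and 1.36 in its 3 probes, and EIF2C4 gave -0.06. Without the 4 Argonaute names, EIF5A2 was the only call among 64 translation factors, and their median difference was again 0.05. That is 1 of 64 higher and 0 lower, where 7.12% of all genes were called higher and 2.92% lower.

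**Figure D2:**
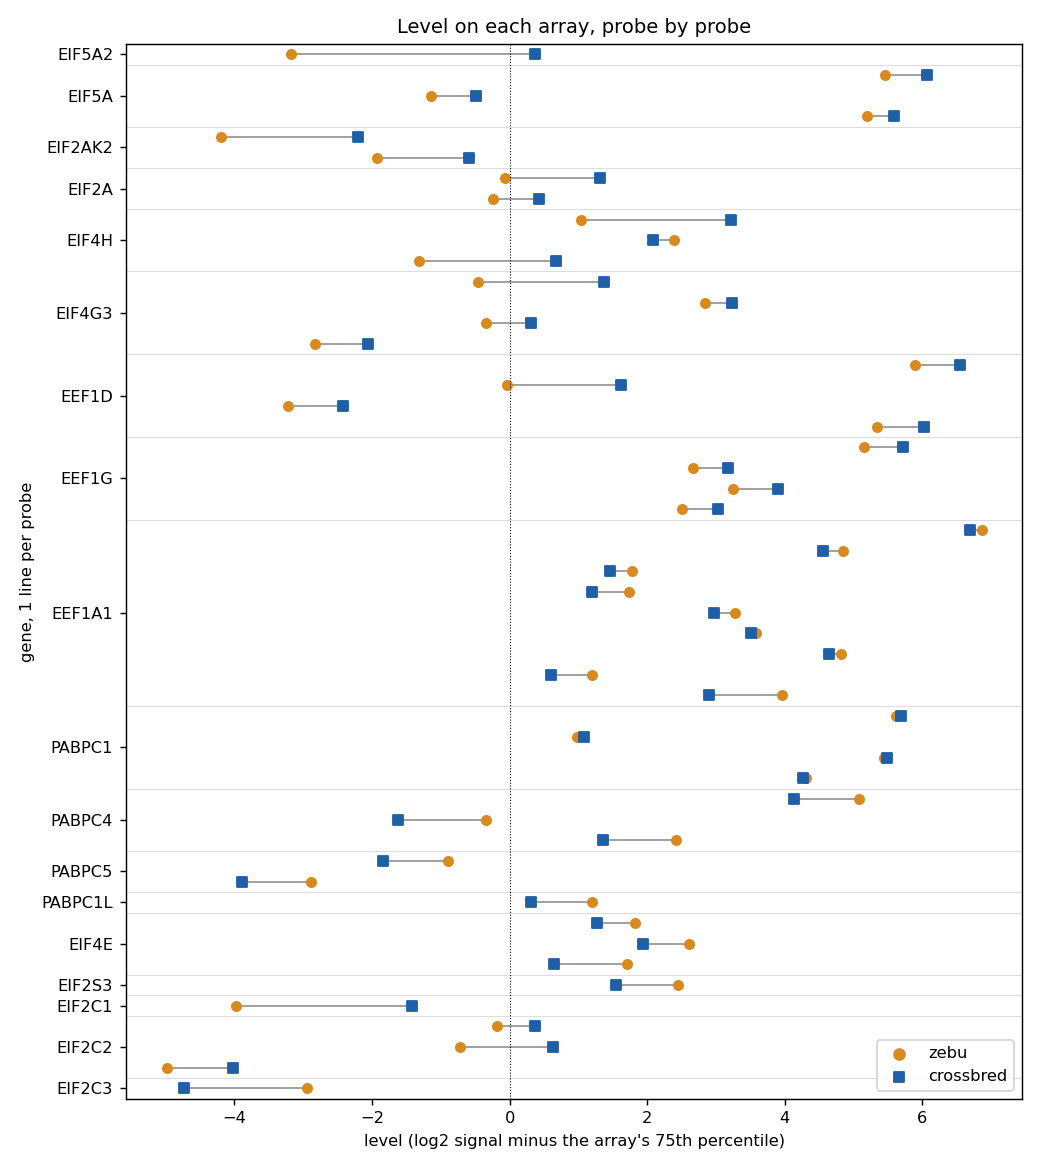
Each line is 1 probe with a signal well above background in either pool, running from its level in the zebu pool (orange circle) to its level in the crossbred pool (blue square), in log2 units relative to the 75th percentile of the array (dotted line at 0), and only the ends of 1 line are comparable. The EIF5A2 line runs from -3.18 to 0.37, the 4 EEF1G lines all run to the right by 0.51 to 0.66, the PABPC4 and PABPC5 lines all run to the left and the 3 EIF4H lines do not share a direction.

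Reading every probe in place of 1 per gene, 7 of 177 detected probes passed the limit on the higher side, where 6.14% of all 39804 detected probes did, and they belonged to 6 genes. These were EIF5A2, EIF2C1, EIF4H with 2 probes, EIF4G3, EEF1D and EIF2AK2. On the lower side 1 probe passed, that of EIF2C3, where 2.99% of all probes did. Of the 51 translation factors with more than 1 probe well above background on both arrays, 37 had all probes on the same side of 0 (72.5%, against 66.8% of 8185 such genes on the array). The median range between the probes of a gene was 0.34, against 0.39 over all such genes.

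Probes that all lay beyond the spot SD on 1 side picked out a smaller set. On the higher side these were EIF2C2, EIF2A, EIF2AK2, EIF4G3, EEF1D, EEF1G, EIF5A and EIF1AD, a relative of eIF1A, which is 8 of 51 genes (15.7%) where 15.5% of all such genes had this pattern. On the lower side they were PABPC4, PABPC5, EIF2B1, EIF2D, EIF2AK1, EIF3F, EIF3L and EIF4E, also 8 of 51 (15.7%), where 18.02% of all such genes had it. EEF1G combined 4 probes with a range of 0.15, and PABPC4 combined 3 probes with a range of 0.34. The probes of EIF4E overlap each other, as do some of EEF1D, EEF1G and EIF5A, and overlapping probes are not separate readings of a gene. The shares were close to those of the array as a whole in both directions.

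By the mean level of the 2 arrays, the called genes were found among the dimmer probes. A low level on 1 array lowers this mean, and EIF5A2 had 0.37 in the crossbred pool and -3.18 in the zebu pool. Of the 54 translation factors with a mean level at or above the 75th percentile of the arrays, 0 were called, where 6.36% of 9319 genes in that range were called higher and 0.783% lower. Among the 14 detected factors under it, EIF5A2 and EIF2C1 rose and EIF2C3 fell, where 7.58% of 15432 genes were called higher and 4.21% lower. Within the brighter range the differences of the factors ran from -0.95 for PABPC4 to 1.38 for EIF2A, and 38 of 54 (70.4%) lay within 0.5 of 0, against 55.0% of all genes in that range.

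Other genes of translation were taken from a list of 50 names, of which 49 were on the array, all of them well above background in both pools. Of these, PAIP2B, CPEB3 and RPTOR rose by 1.59, 1.91 and 2.81 (log2). PAIP2B is a repressor of poly(A)-binding protein, CPEB3 binds elements in the untranslated regions of mRNAs and RPTOR is the mTOR partner that presents eIF4E-binding proteins. This is 3 of 49 (6.12%), where 7.12% of all genes were called higher, and 0 of the 49 were called lower, where 2.92% were. The median difference was -0.11. PAIP1 and PAIP2, the related partners of poly(A)-binding protein, gave 0.27 and -0.11, and CPEB1, CPEB2 and CPEB4 gave -0.37, -0.02 and 0.07. MTOR itself had a difference of 0.75. The release factors ETF1 and GSPT1 gave -0.29 and -0.35. ATF4, whose translation increases when eIF2 is phosphorylated, gave -0.70, and PPP1R15A and PPP1R15B, which direct the phosphatase to eIF2, gave 0.18 and -0.11. The germ cell translation regulators DAZL and BOLL gave -0.47 and 0.42.

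Beside the families closest in function, the translation factors lay nearest to the mitochondrial ribosomal proteins in their median. The 84 cytosolic ribosomal protein genes had a median difference of -0.29 with 73 below 0 (-0.28 over the 95 genes that share the name stem, RPS6K kinases included), the 75 mitochondrial ribosomal protein genes 0.02 with 35 below 0 (-0.09 under quantile normalization), the 50 splicing factor and hnRNP genes -0.20 with 35 below 0, and the 68 translation factors 0.05 with 30 below 0. The bright factors that accompany the ribosome did not share the sign of the ribosomal median in every case, since EEF1D, EEF1G, EIF5A and EIF1 gave 0.57 to 0.64 and EEF1A1 and EEF2 gave -0.17 and -0.21. Each list held at most 3 calls in all. These medians are descriptions of 2 arrays, and the difference between the families was not tested.

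**Figure D3:**
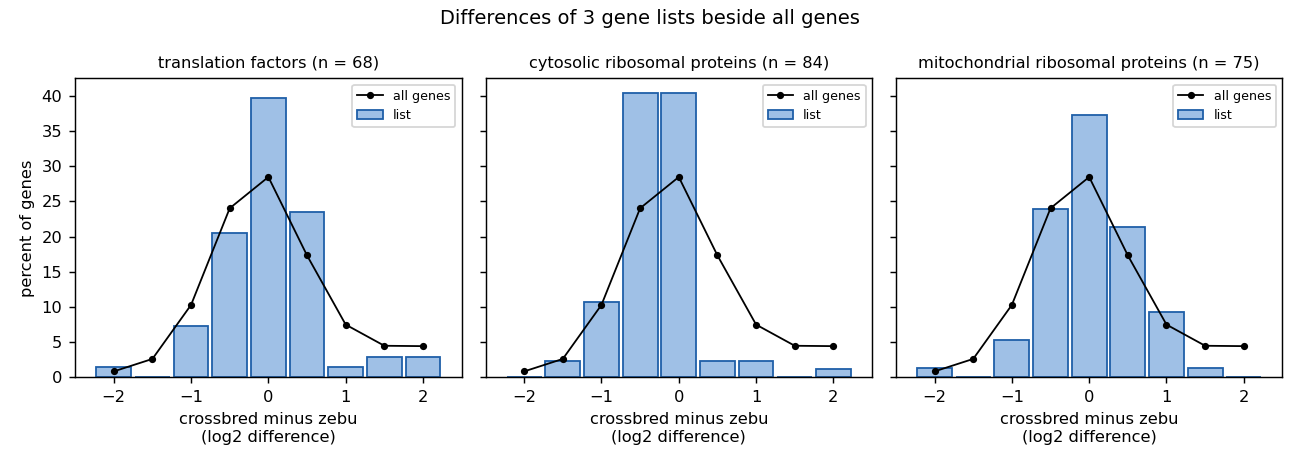
Bars give the percent of genes of a list in bins of 0.5 in the log2 difference (crossbred minus zebu), the black line gives the same for all 22842 genes well above background on both arrays, and the end bins also hold the genes beyond them. The translation factors and the mitochondrial ribosomal proteins peak at 0, whereas the cytosolic ribosomal proteins lean to the lower side with a median of -0.29.

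The testis label was checked against cell type markers, and the lists differed between the pools. All 9 spermatid markers stood well above background in both pools. In the crossbred pool 7 of the 9 were called higher, where 7.12% of all genes were. Their summed scaled signal (levels turned back to linear) was 532 in the crossbred and 274 in the zebu pool. The 6 spermatocyte markers summed to 33.2 and 25.9, and the 8 spermatogonial markers to 30.4 and 45.2. Of the spermatogonial markers 7 were below 0, whereas STRA8 gave 0.59. All 8 Sertoli markers were below 0, with sums of 154 and 241, as were all 6 Leydig markers, with 87.8 and 133, and all 6 peritubular markers, with 36.4 and 60.4. The 6 endothelial markers summed to 1.05 and 1.07 and the 6 macrophage markers to 18.2 and 9.84. Within the macrophage list AIF1 and CD14 had differences of 1.95 and 0.56 and CD68 0.20, whereas CSF1R and CD74 gave -0.19 and -0.56. Of these markers, CD163 alone did not reach the well-above-background mark in the crossbred pool, and the others did in both. The part of cell makeup in the differences of EIF5A2, EIF2AK2, EEF1D, PABPC4 and the other factors was not tested, and in pooled tissue RNA more cells of a type and more RNA per cell cannot be told apart.

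The calls of EIF5A2 and EIF2C1 were kept under each other scaling and background correction. Each of these genes has 1 probe and no spot in a patch, so the choice of probe and the patch removal could not test their calls. Of the 48 named factors, 39 kept the sign of their difference under these settings, and the 9 that did not were EIF4H, EEF1B2, EIF1AX, EIF2B3, EIF2S2, EIF3B, EIF5, EIF6 and PABPC1. The reported differences of these 9 lay within 0.39 of 0.

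**Figure D4:**
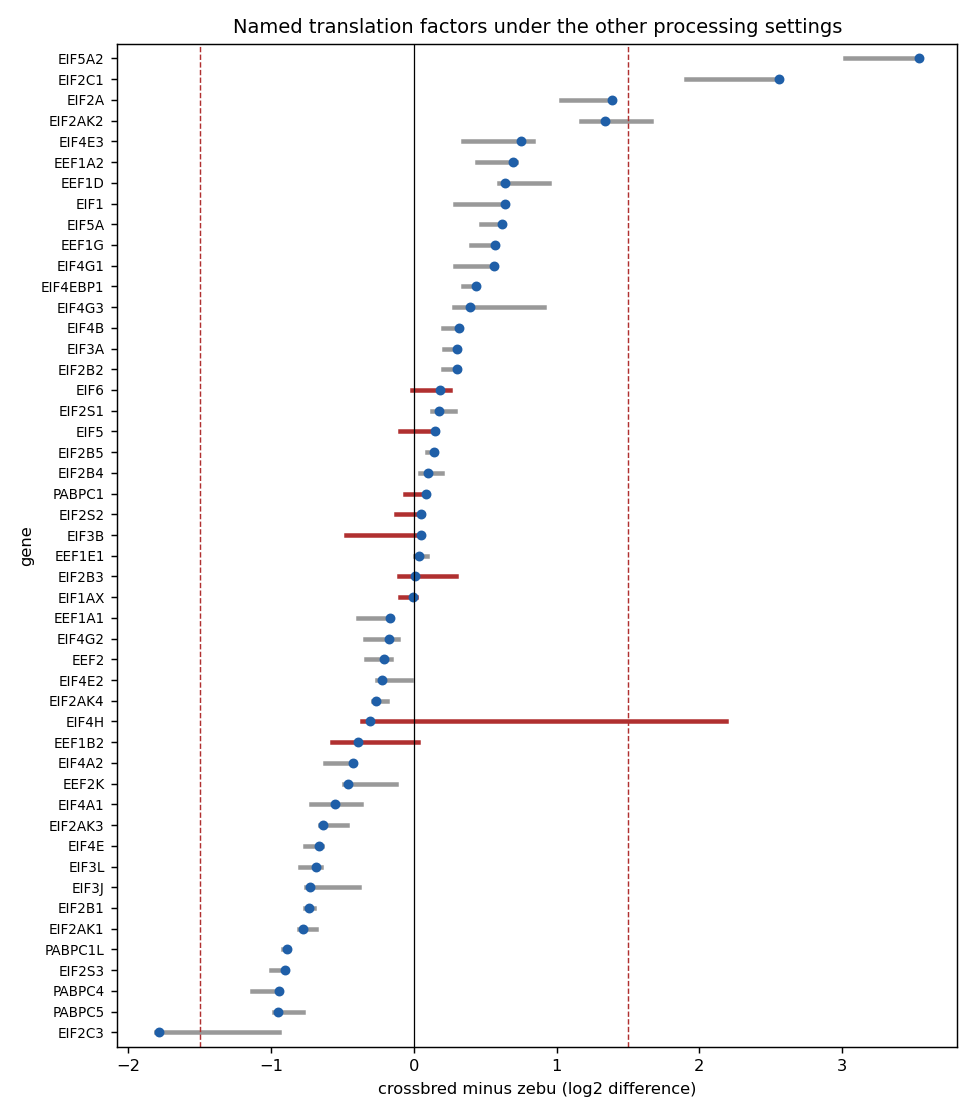
For each of the 48 named translation factors the blue point is the log2 difference (crossbred minus zebu) as reported and the bar its range over the other scalings, background correction, patch removal and choices of probe, with dashed lines at 1.5 and -1.5 and red bars where the sign turns. EIF5A2 stays between 3.02 and 3.54 and EIF2C1 between 1.90 and 2.56, EIF4H runs from -0.36 to 2.19, and 9 of the 48 bars cross 0.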

How the data were processed

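Testis RNA of 3 crossbred and 3 Zebu bulls was pooled per group, labelled with Cy3 from an oligo dT primer and hybridised to 1 Agilent bovine array per pool, so each value rests on 1 array, which sets the precision. The authors deposited the intensity of each spot as given by Agilent Feature Extraction (version 11.5), after subtraction of the background and a spatial detrending, and not scaled between arrays. They also deposited log2 values made in GeneSpring (version 12.6) by a 75th percentile shift, which correlated with the values computed here at 0.999 on the crossbred and 1.00 on the zebu array. Their median was -3.00 and -3.01.

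Control spots and 13 outlier spots were left out, none of them of a translation factor. Spots of the same probe were averaged as log2 processed signals, from which the array's 75th percentile was taken. Patches were Row 54 to 99 with Col 35 to 46 and Row 153 to 167 with Col 50 to 56. The genes named were every called factor, the 10 highest and 10 lowest differences, a core list of 45 factors, factors with a spot in a patch and factors whose probes, where well above background in both pools, differed by more than 1.5. The members and lists were chosen with earlier results of these data known. Of the 69 names, 63 matched a current symbol in a RefSeq gene table (ARS-UCD2.0), 3 matched a synonym and 3 matched none. Probe sequences and positions came from the array annotation. Probes were printed where their reading frame was recognised as coding, by eye, and exon annotation of this build was not used here. Scripts were tested on simulated data and used Python 3.11.15, pandas 2.3.3, numpy 2.4.6, R 4.3.3 and limma 3.58.1 (normexp with an offset of 50). Alternatives were other scalings, background correction, filters, probes per gene and limits.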

Additional observations from a re-analysis of the deposited data

How the results depend on the processing

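With 1 array per group, no replicate could be left out, and no paired analysis was possible because each group held a single pooled sample. EIF5A2 and EIF2C1 were called higher under every scaling and background correction tried. Both have a single probe, well above background on both arrays, so the filters and choices of probe could not change their calls. EIF2C3 was called lower under the other scalings, but 0 factors were called lower with normexp, where EIF4H joined the higher side, or with the patches left out. Over all genes, normexp gave 4.16% higher and 0.683% lower, and leaving out the patches gave 2.63% lower. With the median of all detected probes 4 of 68 factors were called higher (EIF2AK2 and EIF4H added), where 6.63% of all genes were. With every detected probe on its own 7 of 177 probes were, where 6.14% of all detected probes were. At a log2 limit of 1, 4 factors were called higher (12.8% of all genes were) and 1 lower (8.87%). At a linear fold of 1.5 the counts were 9 higher and 11 lower, where 21.4% and 22.2% of all genes were. At a log2 limit of 2 there were 2 higher and 0 lower, and the share over all genes was not taken at this limit. After the data were seen, 3 alternatives were added. Without the Argonaute names 1 factor was called higher and 0 lower, where 7.12% and 2.92% of all genes were. With the probe of the highest mean linear signal EIF4H joined the called factors. These were then 3 higher and 1 lower, where 7.25% and 2.98% of all genes were. The ribosomal names without both the RPS6K kinases and RPS19BP1 had a median of -0.29. Of all calls on the array 70.9% were higher, and 85.9% with normexp. The median over the factors ran from -0.02 under quantile normalization to 0.08 with normexp, beside the reported 0.05. The medians ran from -0.42 to -0.26 for the cytosolic ribosomal, -0.09 to 0.02 for the mitochondrial ribosomal, -0.29 to -0.17 for the splicing and -0.17 to -0.11 for the other translation genes. The sign of 39 of 48 named factors held under the alternatives for single genes. The lowest level well above background was -5.78 on the crossbred and -5.94 on the zebu array, which bounds what could be read.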
